A study of Mus musculus with 12 samples.

Results

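The circadian clock was represented by 10 named genes, which were followed in sorted macrophages of the mouse brain borders. They were the activator gene Clock, the repressor genes Per1, Per2, Per3, Cry1 and Cry2, the nuclear receptor genes Nr1d1 and Nr1d2, and the output genes Dbp and Tef. They were chosen by name, with earlier results of these data known. They are 10 of the 56735 gene symbols of the count table and 10 of the 13724 that passed a filter on low counts. The questions were whether genes that cycle over the day differed between vehicle-treated and BLZ945-treated mice, and whether the 2 cell fractions sorted from 1 mouse had similar levels, as a check of the time at which cells were isolated. The time of day of isolation is not given in the sources used here.

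Macrophages of the leptomeninges and of the spaces around vessels, together termed sdCAMs, were sorted as CD206+ cells from brains without choroid plexuses for bulk RNA-seq. All mice were Mrc1CreERT2/CreERT2:R26tdT/tdT, in which tamoxifen switches on the red reporter tdTomato (tdT) in cells that express Mrc1, the gene of CD206. All mice received tamoxifen 4 weeks before a treatment of 7 days, and cells were harvested 8 weeks after the treatment ended. The vehicle tdT+ group (n = 4) held labelled cells of mice given vehicle. The BLZ945 tdT+ group (n = 4) held labelled cells that were spared in mice given 200 mg per kg BLZ945, an inhibitor of the CSF-1 receptor on which macrophages depend. The BLZ945 tdT- group (n = 4) held unlabelled cells of the same mice, which the study assigns to haematopoietic stem cells. Mice were adults of both sexes, and each group holds the mouse labels F1, F2, M1 and M2. Where BLZ945 libraries share a label, both fractions were sorted from 1 mouse, whereas the vehicle mice with those labels were other animals. The label tdT- depends on tamoxifen having reached a cell, so an unlabelled cell can also be one that escaped recombination.

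The clock runs as a feedback loop inside each cell. CLOCK pairs with BMAL1 (gene Arntl) and binds E-boxes in DNA to switch on the Per, Cry and Nr1d genes and the genes of the PAR bZIP factors DBP and TEF. PER and CRY proteins then return to the nucleus and block CLOCK and BMAL1, and NR1D1 and NR1D2 (REV-ERBα and REV-ERBβ) repress Arntl, so that Dbp and Nr1d1 peak at another time of day than Arntl. Macrophages hold a working clock, and in most tissues Dbp and Nr1d1 cycle with a large amplitude while Clock itself cycles little.

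The E-box that this loop turns on was searched in the RefSeq promoter windows of the members (GRCm38.p6, 250 bases before to 50 after a start of transcription, both strands). Windows were matched by symbol for 9 of the 10 members, 13 windows in all, and Per2 was the other. The E-box CACGTG was present in 4 of the 13 windows, those of Per1 (1), Cry1 (1) and Tef (2), beside 7.15% of all 32851 windows. The D-box that DBP and TEF bind, spelled TTATGTAA, TTACATAA or TTACGTAA, was present in 1 of the 13, that of Per3, beside 1.06% of all windows. The stretches below hold 1 match each of Per1, Cry1, Tef and Per3, and the capitals mark the motif. They lie on the plus strand at chr11:69098756-69098815 (Per1) and chr15:81802519-81802578 (Tef), and on the minus strand at chr10:85185082-85185141 (Cry1) and chr4:151044836-151044897 (Per3).
Per1: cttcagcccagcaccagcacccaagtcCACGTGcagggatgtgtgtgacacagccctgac
Cry1: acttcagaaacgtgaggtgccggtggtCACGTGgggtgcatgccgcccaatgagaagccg
Tef: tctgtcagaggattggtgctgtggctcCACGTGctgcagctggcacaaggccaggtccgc
Per3: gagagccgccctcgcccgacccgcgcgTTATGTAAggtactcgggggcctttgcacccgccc

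The E-box began 166 bases before the start in Per1, 60 bases before in Cry1 and 127 bases before in Tef, and the second window of Tef held another 1. Per3 held a second D-box 158 bases before its start. The variant CACGTT or AACGTG was found in 3 of the 13 windows, those of Cry1, Cry2 and Nr1d1 (4.68% of all windows), and AGGTCA or TGACCT, the core of the element that NR1D proteins bind, also in 3, those of Clock, Per1 and Nr1d2 (16.3%). The cAMP response element TGACGTCA was found in none (1.79%). A match describes letters in these windows and is not a measured binding site.

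The libraries held 19969308 to 23395058 counts, with 14230 to 15866 genes detected. Mitochondrial genes took 0.702% to 1.13% of counts in vehicle tdT+, 0.515% to 0.589% in BLZ945 tdT+ and 0.324% to 0.631% in BLZ945 tdT- libraries, so vehicle did not overlap the BLZ945 groups. Border macrophage markers (8 of 8 in the table, none at 0 throughout) were present in every library, and their summed normalised counts also differed between groups without overlap. They ran from 352732 to 412493 in vehicle tdT+, from 413531 to 478164 in BLZ945 tdT+ and from 213621 to 289802 in BLZ945 tdT- libraries. The single markers did not move alike. Pf4 was lower in BLZ945 tdT+ (26163 to 36756) than in vehicle tdT+ (41990 to 47744), whereas Lyve1 was higher (34030 to 46167 against 12094 to 21081). Csf1r was the largest part of the sums, with 120577 to 178628 normalised counts a library. tdTomato had 0 counts in all 12 libraries and could not check the sort. Summed microglia markers (5 of 5, none at 0 throughout) moved with the groups, with 20507 to 31780 normalised counts in vehicle tdT+, 40020 to 42988 in BLZ945 tdT+ and 95684 to 227102 in BLZ945 tdT- libraries. The part of these 3 measures in the values below was not tested. The library BLZ945 tdT- F2 stood apart, with 422704 normalised counts over 5 neutrophil markers. Vehicle tdT+ libraries had at most 69.4 and BLZ945 tdT+ libraries at most 39.6, and the median of its own group was 16.3. BLZ945 tdT- F2 was also highest over 5 red blood cell markers, with 36171 normalised counts against a group median of 78.3. These red cell markers varied elsewhere too, from 54.1 to 8778 in vehicle tdT+ and from 417 to 15807 in BLZ945 tdT+ libraries. Values of members that rest on BLZ945 tdT- F2 are also given without it. In bulk samples, fewer cells of a type and less RNA per cell cannot be told apart.

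The members lay near the middle of the tested genes in abundance. Of all tested genes, 59.8% had a higher mean normalised count than the median member. Tef, Nr1d2, Per1 and Clock lay above the median tested gene (343 normalised counts), and the other members lay below it. Together the members took between 0.00976% and 0.0218% of a library's counts. Levels between genes were compared per length, as TPM (counts per base of exon, scaled to 1 total in every library), over all 12 libraries. Nr1d2 was highest with 11.9 ± 4.74 TPM, followed by Per1 with 10.7 ± 8.78, Tef with 10.1 ± 3.80 and Dbp with 9.83 ± 4.62 TPM (SD, n = 12). Nr1d1 had 6.36 ± 4.91, Cry1 4.89 ± 4.03, Clock 3.85 ± 1.92 and Cry2 2.99 ± 2.63 TPM. Per3 with 2.34 ± 1.32 and Per2 with 1.17 ± 1.56 TPM were lowest. In all 9 pairs of neighbours in this order, the difference was smaller than the larger of the 2 SDs, so the order of neighbours is not resolved.

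**Figure D1:**
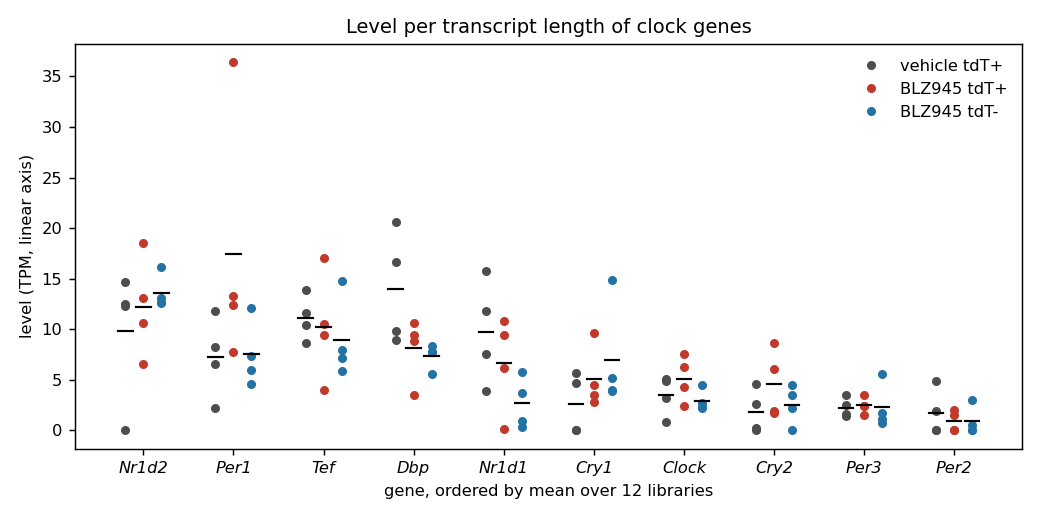
Level per transcript length (TPM, linear axis) of each clock gene in 12 libraries, coloured by group, with a black line at the mean of each group of 4. Nr1d2, Per1, Tef and Dbp lie highest and Per2 lowest, and the groups overlap for every gene.

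Of the 120 member values, 12 were at or under 3 counts (10%, against 10.4% over all tested genes) and 9 of those were 0. A count of 3 corresponded to 2.60 to 3.16 normalised counts, depending on the library. Clock, Per1, Per3, Dbp and Tef exceeded 3 counts in all 12 libraries. Per2 was at or under 3 counts in 6 libraries, Cry1 and Cry2 in 2 each, and Nr1d1 and Nr1d2 in 1 each. Some of these members were far above the limit elsewhere. Nr1d2 had 0 counts in vehicle tdT+ M2 and 273 to 730.1 normalised counts in the other 11 libraries.

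None of the 10 members was called in any of the 3 comparisons (DESeq2, adjusted p of at most 0.05). The background of called genes was 0.961% for BLZ945 tdT+ versus vehicle tdT+, 6.81% for BLZ945 tdT- versus vehicle tdT+ and 6.49% for BLZ945 tdT- versus BLZ945 tdT+. At an unadjusted p under 0.05, 1 member passed in the first comparison (8.13% of all genes), 0 in the second (16.3%) and 0 in the third (15.9%). The quasi-likelihood test of edgeR also called 0 members in each, against 0.0656%, 3.25% and 2.75% of all genes, with 1, 0 and 0 at an unadjusted p under 0.05. No member had groups that did not overlap, against 6.72%, 9.7% and 9.35% of all genes in the same order. Median log2 fold changes of the members were 0.21, 0.02 and -0.03, beside 0.03, 0.03 and 0.0036 over all genes tested.

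**Figure D2:**
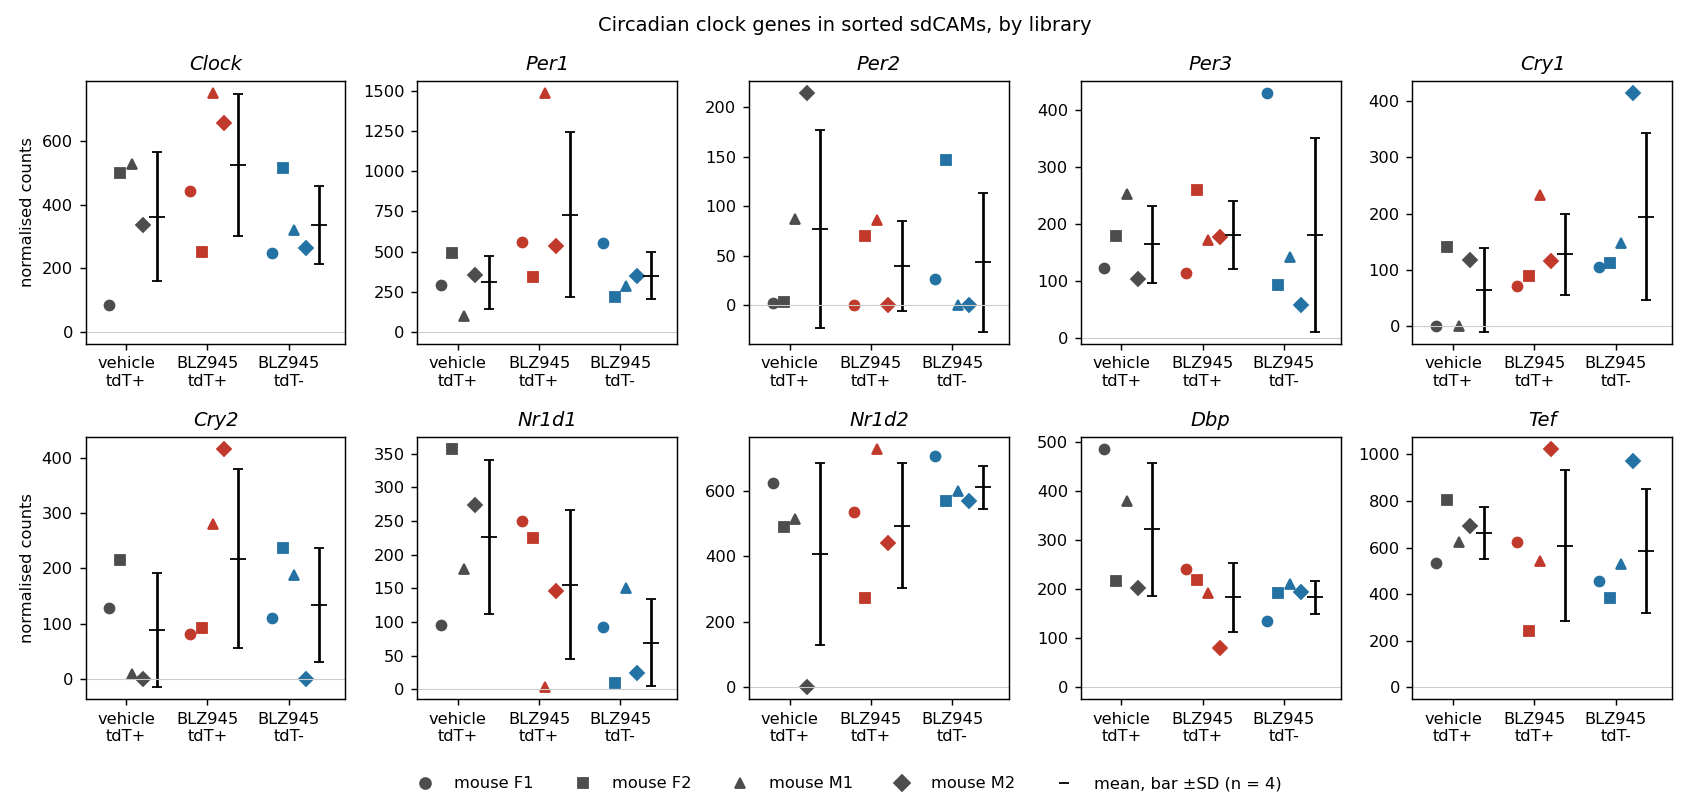
Normalised counts (linear axes) of each clock gene by group, with 1 symbol shape per mouse label and the mean ± SD (n = 4) at the right of each group. The groups overlap in every panel, and Per2, Cry1, Cry2, Nr1d1 and Nr1d2 each have libraries at or near 0. Vehicle mice with the same labels are other animals.

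The absence of calls was set against the width of the intervals. Standard errors on the log2 scale ran from 0.427 (Tef) to 2.15 (Per2). In 3 of the 30 member tests the 95% interval stayed inside a 2-fold change either way. Those were Tef in BLZ945 tdT+ versus vehicle tdT+ (0.513-fold to 1.64-fold), Tef in BLZ945 tdT- versus BLZ945 tdT+ (0.539-fold to 1.72-fold) and Dbp in BLZ945 tdT- versus BLZ945 tdT+ (0.531-fold to 1.88-fold). In the other tests the interval reached a change of 2-fold or more, so a p above the threshold does not show equal levels. The intervals cover counting error and the spread between 4 libraries a group. In BLZ945 tdT- versus BLZ945 tdT+ they treat both fractions of a mouse as independent.

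**Figure D3:**
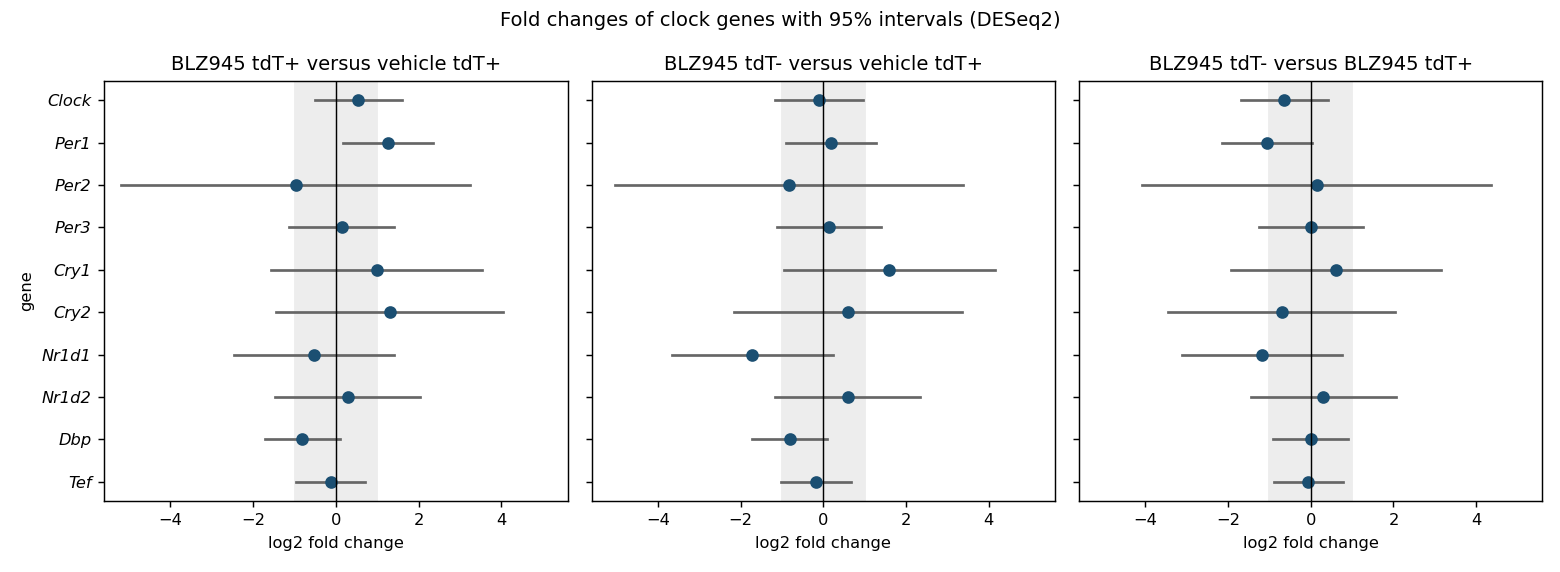
Log2 fold change (points) and 95% interval (lines) of each clock gene in the 3 comparisons, with changes under 2-fold shaded. The interval of Per1 in BLZ945 tdT+ versus vehicle tdT+ leaves out 0, from 0.17 to 2.33, and those of Per2 span more than 8 log2 units.

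Clock (chromosome 5, 76357715 to 76452639, GRCm39) encodes the activator that gives the loop its name. Its normalised counts in mice F1, F2, M1 and M2 were 85.2, 498, 527 and 336 in vehicle tdT+, 442, 252, 752 and 657 in BLZ945 tdT+, and 246, 515, 321 and 264 in BLZ945 tdT- libraries. The groups overlapped, and the vehicle F1 library was the lowest of all 12. The log2 fold change was 0.54 ± 0.54 (SE, adjusted p = 0.9997) for BLZ945 tdT+ and -0.10 ± 0.54 (adjusted p = 0.980) for BLZ945 tdT- versus vehicle tdT+. The first was 0.21 without vehicle F1. Clock in BLZ945 tdT- versus BLZ945 tdT+ had -0.64 ± 0.54 (adjusted p = 0.689), and -0.93 without BLZ945 tdT- F2. Its partner Arntl was not among the members and had no call. Arntl had 698 ± 249 normalised counts in vehicle tdT+, 897 ± 281 in BLZ945 tdT+ and 478 ± 213 in BLZ945 tdT- libraries (SD, n = 4).

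Per1 (chromosome 11, 68986043 to 69000786) encodes a PERIOD repressor and is also induced within the hour by cAMP signals and glucocorticoids. Mice F1, F2, M1 and M2 had normalised counts of 289, 491, 96.1 and 352 in vehicle tdT+, 561, 338, 1490.0 and 533 in BLZ945 tdT+, and 552, 215, 285 and 347 in BLZ945 tdT- libraries. BLZ945 tdT+ M1 was the highest of all 12 libraries, with 561 the next highest, and the 3 groups overlapped. The means were 307 ± 164, 731 ± 516 and 350 ± 145 (SD, n = 4). The log2 fold change of BLZ945 tdT+ versus vehicle tdT+ was 1.25 ± 0.55, with an unadjusted p of 0.0235 and an adjusted p of 0.458. Without BLZ945 tdT+ M1 it was 0.64. Against BLZ945 tdT-, the BLZ945 tdT+ libraries gave -1.06 ± 0.55 (tdT- minus tdT+, adjusted p = 0.325), and -0.45 without BLZ945 tdT+ M1.

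Per2 (chromosome 1, 91343704 to 91387046) encodes the second PERIOD protein and was the member with the lowest level. Its normalised counts were 2.01, 2.97, 87.4 and 215 in vehicle tdT+, 0, 70.0, 86.1 and 0 in BLZ945 tdT+, and 26.1, 147, 0 and 0 in BLZ945 tdT- libraries of mice F1, F2, M1 and M2. Every group held libraries at or under 3 counts beside libraries with 70.0 or more. Its log2 fold changes were -0.97, -0.83 and 0.15 in the 3 comparisons, each with an SE of 2.15, and carry no direction. Without BLZ945 tdT- F2, the library with neutrophil markers, those of BLZ945 tdT- were -3.15 versus vehicle tdT+ and -2.17 versus BLZ945 tdT+. Per3 (chromosome 4, 151088109 to 151129122), the third PERIOD gene, had 164 ± 67.3, 180.4 ± 60.4 and 180.4 ± 169.7 normalised counts. Its highest library was BLZ945 tdT- F1 with 429.8, and its adjusted p was 0.979 or more in each comparison.

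Cry1 (chromosome 10, 84967564 to 85020928) encodes the stronger CRYPTOCHROME repressor. Its normalised counts in mice F1, F2, M1 and M2 were 0, 139.6, 0 and 118 in vehicle tdT+, 70.9, 89.4, 233 and 115 in BLZ945 tdT+, and 104, 112, 148 and 415 in BLZ945 tdT- libraries. The libraries at 0 were both vehicle libraries, and the other vehicle values lay inside the range of both BLZ945 groups. The log2 fold change of BLZ945 tdT- versus vehicle tdT+ was 1.60 ± 1.30 (adjusted p = 0.656), and without BLZ945 tdT- M2 it was 0.91. Cry2 (chromosome 2, 92233991 to 92264388) had 129, 215, 9.52 and 0 in vehicle tdT+, 81.9, 92.2, 281 and 416 in BLZ945 tdT+, and 111, 236, 188 and 0 in BLZ945 tdT- libraries. BLZ945 mouse M2 thus had the highest Cry2 value of all 12 libraries in its tdT+ cells and 0 in its tdT- cells. Without BLZ945 tdT- F2, the log2 fold change of BLZ945 tdT- moved from 0.60 to 0.17 versus vehicle tdT+ and from -0.70 to -1.14 versus BLZ945 tdT+.

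Nr1d1 (chromosome 11, 98658758 to 98666159) encodes REV-ERBα, the repressor of Arntl. Its normalised counts in mice F1, F2, M1 and M2 were 95.2, 358, 178 and 273 in vehicle tdT+, 249, 224, 3.08 and 146 in BLZ945 tdT+, and 91.8, 9.41, 149.8 and 24.9 in BLZ945 tdT- libraries. The means were 226 ± 114, 156 ± 111 and 69.0 ± 64.7 (SD, n = 4), and the ranges of the groups overlapped. The log2 fold change was -1.71 ± 0.99 for BLZ945 tdT- versus vehicle tdT+, with an adjusted p of 0.407. Without BLZ945 tdT- F2 it was -1.35. Nr1d1 shares 263 exon bases with Thra on the opposite strand, which had 39 to 348 counts, and counting without strand could move reads between them.

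Nr1d2 (chromosome 14, 4230569 to 4265642) encodes REV-ERBβ. In mice F1, F2, M1 and M2 the normalised counts were 626, 490.2, 514 and 0 in vehicle tdT+, 535, 273, 730.1 and 440.5 in BLZ945 tdT+, and 706, 569.6, 599 and 569.9 in BLZ945 tdT- libraries. The BLZ945 tdT- libraries had the smallest relative spread of any member and group, with a CV of 10.6%, where counting alone would give 4.04%. The log2 fold change of BLZ945 tdT+ versus vehicle tdT+ was 0.28 ± 0.90 (adjusted p = 0.9997) and turned to -0.14 without the vehicle library at 0.

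Dbp (chromosome 7, 45354512 to 45359627) encodes a PAR bZIP activator that relays the clock to other genes. Normalised counts of mice F1, F2, M1 and M2 were 486, 217, 380.0 and 203 in vehicle tdT+, 240.2, 219, 192 and 80.8 in BLZ945 tdT+, and 135, 192, 211 and 194 in BLZ945 tdT- libraries. Vehicle F1 and M1 lay above all BLZ945 libraries, and vehicle F2 and M2 lay among them. The means were 321 ± 136, 183 ± 71.0 and 183 ± 33.3 (SD, n = 4). The log2 fold change was -0.81 ± 0.46 in both BLZ945 groups versus vehicle tdT+, with adjusted p = 0.75 for tdT+ and 0.397 for tdT-. These 2 comparisons share the vehicle libraries. Dbp shares 539 exon bases with Sphk2 on the opposite strand, which had 398 to 2114 counts.

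Tef (chromosome 15, 81686622 to 81711064), a PAR bZIP relative of Dbp, had the smallest standard errors of the members. Its normalised counts in mice F1, F2, M1 and M2 were 535, 803, 623 and 691 in vehicle tdT+, 625, 241, 540.4 and 1026 in BLZ945 tdT+, and 457, 382, 530.5 and 973 in BLZ945 tdT- libraries. The group means were 663 ± 113, 608 ± 323 and 586 ± 265 (SD, n = 4). Within both BLZ945 groups the highest library came from mouse M2 and the lowest from mouse F2. Without BLZ945 tdT- F2, the log2 fold change of BLZ945 tdT- versus vehicle tdT+ moved from -0.18 to -0.026.

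The ratio of Dbp to Arntl was used as a description of phase, since these genes peak at different times of day. As log2 of normalised counts, with a pseudocount of 1, it averaged -1.13 ± 0.89 in vehicle tdT+, -2.35 ± 0.79 in BLZ945 tdT+ and -1.28 ± 0.74 in BLZ945 tdT- libraries (SD, n = 4). The ranges overlapped, from -1.82 to 0.08, from -3.24 to -1.48 and from -1.88 to -0.21. In the same mouse, the ratio was -1.95 in tdT+ and -1.44 in tdT- cells of F1, and -1.48 and -1.59 in those of F2. It was -2.72 and -0.21 in M1 and -3.24 and -1.88 in M2. As raw ratios, the fractions of F1 and F2 were closer than those of M1 and M2. The means of the tdT+ and tdT- libraries differed (-2.35 and -1.28) and were not subtracted here. The raw order therefore does not rank the mice by agreement.

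Both fractions of a BLZ945 mouse were dissociated from 1 brain, and share its time of isolation. Each library's deviation from the mean of its group was taken, on a log2 scale with a pseudocount of 1. For 5 of 10 members the 2 fractions of a mouse were closer to each other than fractions of different mice were, against 47.4% of all genes. The median ratio of the within-mouse to the between-mouse difference was 1.08, beside 1.02 over all genes. Deviations had the same sign in 16 of 40 pairs of fractions (40.0%, against 49.8% over all genes). Deviations of Tef had the same sign in only 2 of 4 mice, but Tef was closest, with a ratio of 0.351 (0.317 within and 0.901 between mice). Nr1d2 had 0.749, Cry1 0.833, Per2 0.897 and Per1 0.983, while Nr1d1 was furthest with 1.48 and Clock had 1.44. Without mouse F2, whose tdT- library held neutrophil markers, 3 of 10 members were closer within a mouse, against 46.5% of all genes.

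**Figure D4:**
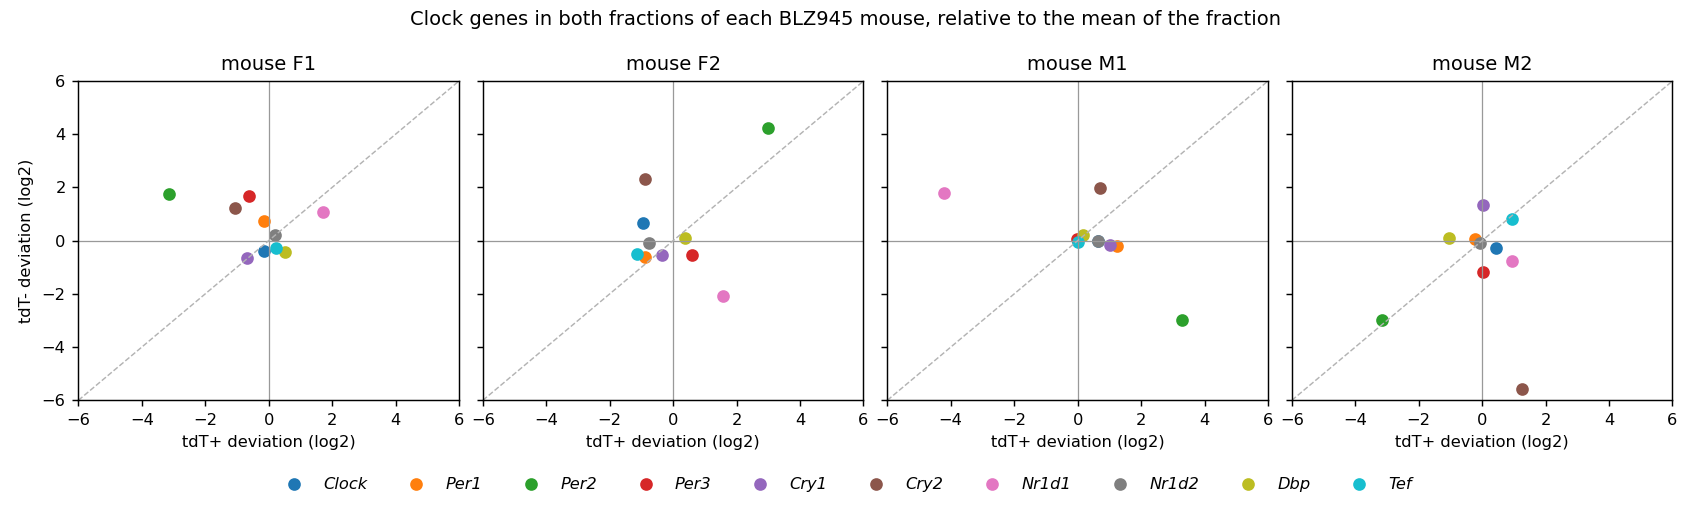
For each BLZ945 mouse, the deviation of each clock gene from its group mean in tdT+ cells (x axis, log2) against that in tdT- cells (y axis, log2), with the diagonal dashed. Points on the diagonal would be equal in both fractions. Tef lies near it in each mouse, whereas Nr1d1 in M1 and Cry2 in M2 lie far from it.

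Clock genes were also compared with each other. Over deviations from group means in 12 libraries, the 45 pairs of members had a median Pearson r of -0.02, with a range from -0.61 (Per2 and Tef) to 0.59 (Per1 and Cry1). Libraries of 1 mouse share an animal, and the values are given as a description. Libraries at or under 3 counts in Per2, Cry1, Cry2, Nr1d1 and Nr1d2 weigh on them. Among the members with an E-box in the window, the pairs were 0.59 for Per1 and Cry1, 0.33 for Cry1 and Tef and 0.28 for Per1 and Tef. Dbp and Nr1d1, which CLOCK and BMAL1 also switch on, had no E-box in the window. Dbp had -0.32 with Per1 and -0.58 with Cry1, and Nr1d1 had -0.30 with Per1 and 0.046 with Cry1. A shared control through the E-box was not tested. With Arntl, the members ran from -0.62 (Per3) to 0.56 (Per1). Nr1d1 had -0.61 with Arntl, its target, whereas Nr1d2, which also represses Arntl, had -0.011, and Dbp had 0.030. Dbp and Tef, which bind the same D-box, had -0.49.

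Several members varied more than genes of like abundance. The dispersion of 6 of 10 members lay above the trend fitted over all genes, beside 32.9% of all genes, with a median ratio of 1.31 against 0.671. Nr1d2 had 5.07 times the trend, Cry2 3.27, Per2 2.75 and Cry1 2.31 times, whereas Dbp had 0.275 times. The CV within a group ran from 10.6% to 162%, and was 2.47 to 19.1 times what counting alone gives. Libraries were made from sub-nanogram RNA by PCR without molecular identifiers, and its part in this spread was not tested.

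Of 22 other clock genes, 18 were tested, and 0, 0 and 1 were called in the 3 comparisons, beside 0.961%, 6.81% and 6.49% of all genes. At an unadjusted p under 0.05 there were 0, 3 and 3, beside 8.13%, 16.3% and 15.9% of all genes, and edgeR called 0 in each (0, 3 and 3 unadjusted). A single call among 18 is near that background. It was Usp2, a deubiquitinase that cycles with the clock. It had 918 ± 196 normalised counts in vehicle tdT+, 755 ± 298 in BLZ945 tdT+ and 1694 ± 712 in BLZ945 tdT- libraries (SD, n = 4), and rose by 1.17 ± 0.35 on the log2 scale in BLZ945 tdT- versus BLZ945 tdT+ (adjusted p = 0.0203). The groups overlapped. The call was lost with edgeR (adjusted p = 0.105), with the mouse as a block (0.107) and without M1 or M2 of either group (0.0646 to 0.129). Rora, an activator of Arntl, Nfil3, a repressor at the D-box, and Arntl were not called, and Npas2, a paralogue of Clock, did not pass the filter. Arntl in BLZ945 tdT- versus BLZ945 tdT+ had -0.91 ± 0.40 (adjusted p = 0.203).

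Per1 shares inducers with immediate early genes and with glucocorticoid targets, so both lists were read beside it. Both were chosen with earlier results of these data known. Of 20 immediate early genes, 4 rose in BLZ945 tdT+ versus vehicle tdT+, 6 in BLZ945 tdT- versus vehicle tdT+ and 1 in BLZ945 tdT- versus BLZ945 tdT+, beside 0.484%, 3.29% and 2.92% of all genes. None fell, beside 0.477%, 3.51% and 3.57% of all genes. With edgeR, 4, 5 and 0 were called, and the call lost in the third comparison was Junb (adjusted p = 0.00455, and 0.0565 with edgeR). Fos, a subunit of AP-1, rose by 2.43 ± 0.31 in tdT+ (adjusted p = 6.74e-12) and by 2.27 ± 0.31 in tdT- (2.92e-11). Of 10 glucocorticoid response genes tested, none was called in BLZ945 tdT+ versus vehicle tdT+, where the background was 0.961%. At an unadjusted p under 0.05 there were 5, beside 8.13% of all genes, and edgeR called 0, with 3 at an unadjusted p under 0.05. Over the 10, 6 were higher and 4 lower, with a median log2 fold change of 0.89 beside 0.03 over all genes. Of the 5 with an unadjusted p under 0.05, Mt1 was lower (-0.39 ± 0.15) and the others were higher. In BLZ945 tdT- versus vehicle tdT+ 2 were called, beside 6.81% of all genes, and in BLZ945 tdT- versus BLZ945 tdT+ 1, beside 6.49%. Versus vehicle tdT+, BLZ945 tdT- cells had higher Sgk1, a kinase gene (2.16 ± 0.43, adjusted p = 3.75e-05), and lower Mt1, a metallothionein gene (-0.85 ± 0.15, 1.24e-06). Mt1 was also lower in BLZ945 tdT- versus BLZ945 tdT+ (-0.46 ± 0.15, adjusted p = 0.0393, and 0.0957 with edgeR). Library names carry "pre" for vehicle and "Post" for BLZ945 libraries, and whether the groups were isolated on separate days is not stated, so day of isolation and treatment cannot be told apart.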

How the data were processed

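Per the labels, RNA of sorted cells was amplified with SMART-Seq and sequenced on an Illumina NextSeq instrument. The study's methods name another sequencer and counter version for bulk RNA-seq, and the labels and file header were followed here. Per the labels and the file header, the authors aligned reads with STAR 2.7.11a to GRCm39 and deposited whole-number counts per gene symbol from featureCounts 2.0.6 (exons, unstranded, no multimapping reads). Here counts were tested with DESeq2 1.42.0, all 12 libraries in 1 fit by group, after removing genes with fewer than 10 counts in 9 or more libraries. A gene was called where its p, adjusted by Benjamini-Hochberg, was 0.05 or lower. Intervals are 95% Wald intervals, and ± after a log2 fold change is the SE. Normalised counts are counts divided by DESeq2 size factors, and TPM uses the lengths in the file. The 10 members were named in full. Of other clock genes, Arntl, Npas2, Nfil3, Rora and called genes were named, and of the other lists at most 4 called genes. Members and lists were chosen with earlier results of these data known. Alternatives were edgeR 4.0.16, TMM scaling, no filter, 2 groups at a time, the letter of the mouse label as a covariate, the mouse label as a block and leaving out each library, and for the agreement of fractions also variance-stabilised values. Same-labelled BLZ945 tdT+ and tdT- libraries came from the same mouse by the study's design. Their deviations over all genes had r of -0.0046 to 0.035, beside -0.024 to 0.026 for fractions of different mice. Over the members r was -0.74 to 0.35 in the same mouse and -0.89 to 0.88 in different mice. The shared mouse was thus not visible in these values. Within a group each library came from another mouse, and both BLZ945 groups came from the same mice. The main fit did not pair the fractions of a mouse. A vehicle column named M1 in the file was assigned to M2 by its library number. Code was tested on simulated data.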

Additional observations from a re-analysis of the deposited data

Results flagged for a closer look

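Cry1 in BLZ945 tdT- M2 had 415 normalised counts, against 148 in the nearest of the other 3 libraries of its group, a gap of 0.860 of the group's range. Of the 30 groups of 4 libraries looked at (10 members in 3 groups), this was the 1 library far from its group, and chance gives 1.5 such libraries. The other fraction of mouse M2 had 115 normalised counts of Cry1, inside the range of its group. In none of the 30 tests of the letter F or M against a comparison (edgeR) was the effect on a member called to differ, with 2 at an unadjusted p under 0.05 and a lowest adjusted p of 0.580.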

How the results depend on the processing

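Of 420 values of members under another setting, 387 kept their sign, 33 had the opposite sign and 1 had an adjusted p of at most 0.05. That was Cry1 in BLZ945 tdT- versus vehicle tdT+ with the mouse label as a block (log2 fold change 4.70, adjusted p = 0.0295), which gave 1 called member. Vehicle and BLZ945 mice share only a label there, so this pairs no animals. For BLZ945 tdT- versus BLZ945 tdT+, where the label is the animal, the block called no member. Under the block the sign changed for Clock (0.10) and Per3 (-0.27) in BLZ945 tdT- versus vehicle tdT+, and for Dbp (0.082) and Tef (0.022) in BLZ945 tdT- versus BLZ945 tdT+, where the letter as a covariate also gave Dbp 0.041. Leaving out 1 library at a time called 0 members in each comparison. Log2 fold changes that changed sign then ranged, in BLZ945 tdT+ versus vehicle tdT+, from -1.71 to 0.34 (Per2), -0.093 to 0.42 (Per3), -0.14 to 0.56 (Nr1d2), -0.50 to 0.14 (Tef) and -0.67 to 0.044 (Rora). In BLZ945 tdT- versus vehicle tdT+ they ranged from -0.43 to 0.13 (Clock), -0.12 to 0.51 (Per1), -3.15 to 0.49 (Per2), -0.75 to 0.43 (Per3) and -0.85 to 0.35 (Nfil3). In BLZ945 tdT- versus BLZ945 tdT+ they ranged from -2.17 to 0.88 (Per2), -0.89 to 0.29 (Per3), -0.066 to 1.08 (Cry1), -0.25 to 0.16 (Dbp) and -0.41 to 0.32 (Tef). The adjusted p of Cry1 was not given by DESeq2 without vehicle F2 or M2 in the comparisons with vehicle.

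All genes called in BLZ945 tdT+ versus vehicle tdT+ numbered 131, against 9 with edgeR, 256 with no filter, 325 with the 2 groups alone and 389 with the replicate block. BLZ945 tdT- versus vehicle tdT+ gave 928 against 446 with edgeR, and BLZ945 tdT- versus BLZ945 tdT+ 868 against 377. The causes were not tested. Without 1 library they ranged from 104 to 190, from 756 to 1097 and from 667 to 1017. Members closer within a mouse numbered 5, against 4 with variance-stabilised values, 5 with TMM scaling and 3 to 6 without 1 mouse, with 3 without F2, a setting chosen after seeing the data. With 4 libraries a group and zeros among low counts, only 3 of the 30 member intervals stayed inside a 2-fold change either way. The others reached changes of 2-fold or more. The intervals cover the spread between libraries, and the part of amplification in that spread was not tested.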
